A study of Mus musculus with 12 samples.

Results

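The genes described here are 10 regulators of entry into the cell cycle, chosen by name: the cyclin-dependent kinase (CDK) inhibitors Cdkn1a, Cdkn1b, Cdkn1c, Cdkn2c and Cdkn2d, the D cyclins Ccnd1, Ccnd2 and Ccnd3, and the kinases Cdk4 and Cdk6. They are 10 of 18193 genes measured, read by 26 of 45037 probe sets (groups of short array probes for 1 transcript) to which the platform annotation gives exactly 1 of these symbols. Expression was measured on 12 Affymetrix mouse arrays in KSL cells, the bone marrow fraction that carries c-Kit and Sca-1, lacks lineage markers and is enriched for blood stem cells and their early progeny. Donors were Fancc-/- mice, which lack a subunit of the Fanconi anaemia DNA repair complex, and wild-type mice, all 2 to 4 months old. They formed 4 groups of 3 arrays: mutant cells with TNF, mutant cells without TNF, wild-type cells with TNF and wild-type cells without TNF. All cultures ran for 24 h in 10% serum with IL-6 at 20 ng/ml, IL-11 at 10 ng/ml, Flt3 ligand at 50 ng/ml and stem cell factor at 10 ng/ml. The inflammatory cytokine tumour necrosis factor alpha (TNF) (10 ng/ml) was given to the treated groups for the same 24 h. The untreated cells were therefore also under strong growth stimulation. The labels do not say that replicates came from separate mice, and p-values refer to the spread between these arrays only. Sex-linked transcripts differed strongly between arrays of 1 group in 3 of the 4 groups (values below), so those arrays were not repeat measurements of 1 sample; the treated mutant arrays showed no such difference.

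D cyclins bind CDK4 and CDK6, and the resulting kinases phosphorylate the retinoblastoma protein, which frees E2F transcription factors and lets a cell leave G1. The Cip/Kip inhibitors p21 (Cdkn1a), p27 (Cdkn1b) and p57 (Cdkn1c) bind a range of cyclin-CDK complexes, while the INK4 inhibitors p18 (Cdkn2c) and p19 (Cdkn2d) bind CDK4 and CDK6 alone. In mouse haematopoietic stem and progenitor cells these inhibitors are known as brakes on the cell cycle, and the D cyclins as partly interchangeable drivers of division.

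With TNF 2 of the 10 genes fell, the inhibitor gene Cdkn1a and the cyclin gene Ccnd2, each by 1.78-fold to 1.95-fold in both genotypes. The kinase genes Cdk4 and Cdk6, the other D cyclins and the inhibitor Cdkn1b were called in no comparison, and no gene of the 10 differed by genotype after adjustment.

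Promoter sequences of Cdkn1a are shown because it is the inhibitor that changed, and that of Cdkn1b because it is a Cip/Kip relative that did not pass. They come from RefSeq (GRCm38.p6), run from 250 bases before to 50 bases after an annotated start on the plus strand, and are written 5′ to 3′. Of the 10 genes, 7 had a promoter in that table, in 10 windows. Capitals mark every match on either strand to 8 motifs: the GC box GGGCGG, the E-box CACGTG, the TATA motif TATAA, the box CCAAT, the AP-1 motif TGANTCA, the E2F motif TTTNNCGC, the NF-kB site and the p53 half-site. The windows lie at chr17:29090729-29091028 (Cdkn1a, upstream start), chr17:29093519-29093818 (Cdkn1a, downstream start) and chr6:134920151-134920450 (Cdkn1b).
Cdkn1a upstream start: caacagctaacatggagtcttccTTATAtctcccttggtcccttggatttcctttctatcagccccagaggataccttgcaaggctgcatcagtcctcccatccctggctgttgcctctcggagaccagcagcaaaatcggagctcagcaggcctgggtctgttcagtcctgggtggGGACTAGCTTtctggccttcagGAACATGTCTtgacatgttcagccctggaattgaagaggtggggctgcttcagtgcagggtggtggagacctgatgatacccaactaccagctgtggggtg
Cdkn1a downstream start: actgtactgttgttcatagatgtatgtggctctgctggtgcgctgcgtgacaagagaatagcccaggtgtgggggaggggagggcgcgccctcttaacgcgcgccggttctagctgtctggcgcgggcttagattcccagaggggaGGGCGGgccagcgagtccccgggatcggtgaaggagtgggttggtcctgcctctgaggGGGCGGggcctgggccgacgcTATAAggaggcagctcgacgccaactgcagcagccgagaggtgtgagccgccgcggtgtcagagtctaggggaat
Cdkn1b: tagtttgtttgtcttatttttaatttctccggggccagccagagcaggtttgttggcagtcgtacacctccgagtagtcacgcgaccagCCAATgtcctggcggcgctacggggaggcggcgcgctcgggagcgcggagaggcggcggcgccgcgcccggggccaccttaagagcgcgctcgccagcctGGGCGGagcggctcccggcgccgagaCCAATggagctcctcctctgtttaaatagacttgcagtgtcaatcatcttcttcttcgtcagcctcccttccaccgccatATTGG
In the upstream Cdkn1a window 2 p53 half-sites were found, at -73 to -64 and at -51 to -42 counted from the start, and a TATA match on the minus strand. p53 is the best-known activator of Cdkn1a, and a p53 half-site occurred in 8.36% of all 32851 windows of this length. The downstream window held GC boxes at -104 to -99 and at -46 to -41 (35.7% of windows hold 1) and a TATA match at -25 to -21 (24.9%). The Cdkn1b window held 1 GC box and 3 CCAAT matches (37.4%). The NF-kB site, found in 8.46% of windows, had no match in these 3 windows, and no 2 of the matches in them overlapped. These are matches of letters only.

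All values below are the authors' log2 levels per probe set, and a gene is given by its brightest probe set unless another is named. A difference of 1 is 2-fold, and a difference was called where limma's adjusted p over all genes was under 0.05. Levels of different genes come from different probes and are not set against each other. Fancc itself read 8.87 to 9.12 in treated and 8.73 to 9.16 in untreated cells labelled mutant, against 8.22 to 8.65 in treated and 8.22 to 8.49 in untreated wild-type cells. It was thus not lower on the arrays labelled mutant (averaged difference 0.62, limma adjusted p = 0.137). Whether its probe set lies in the disrupted part is not known here, and genotype is given as labelled. Kit, which encodes c-Kit, read 9.95 to 10.77. Cd34 (12.81 to 13.13) and Flt3 (11.44 to 12.15), listed here as stem and progenitor markers, are not part of the KSL definition. Each of these stood above the median of the gene table, in which each gene has its brightest probe set (7.44), on every array. Ly6a, which encodes Sca-1, had no probe set with 1 symbol. Markers of erythroid cells (7 of 7 measured), of T and NK cells (5 of 5) and of stroma and endothelium (7 of 7) were below that median on every array. Fewer markers of other lineages were: 1 of 12 for granulocytes and 1 of 8 for monocytes and macrophages. For mast cells, basophils and eosinophils it was 2 of 8, for megakaryocytes 4 of 8 and for the B lineage 4 of 7. One array stood apart in the control probe sets for Actb, whose 3′ level exceeds its 5′ level more when cDNA is short. This gap was 1.78 on wild-type untreated replicate 1 and 0.68 to 1.12 on the other 11 arrays. Calls of the 10 genes that move without that array are named.

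**Figure D1:**
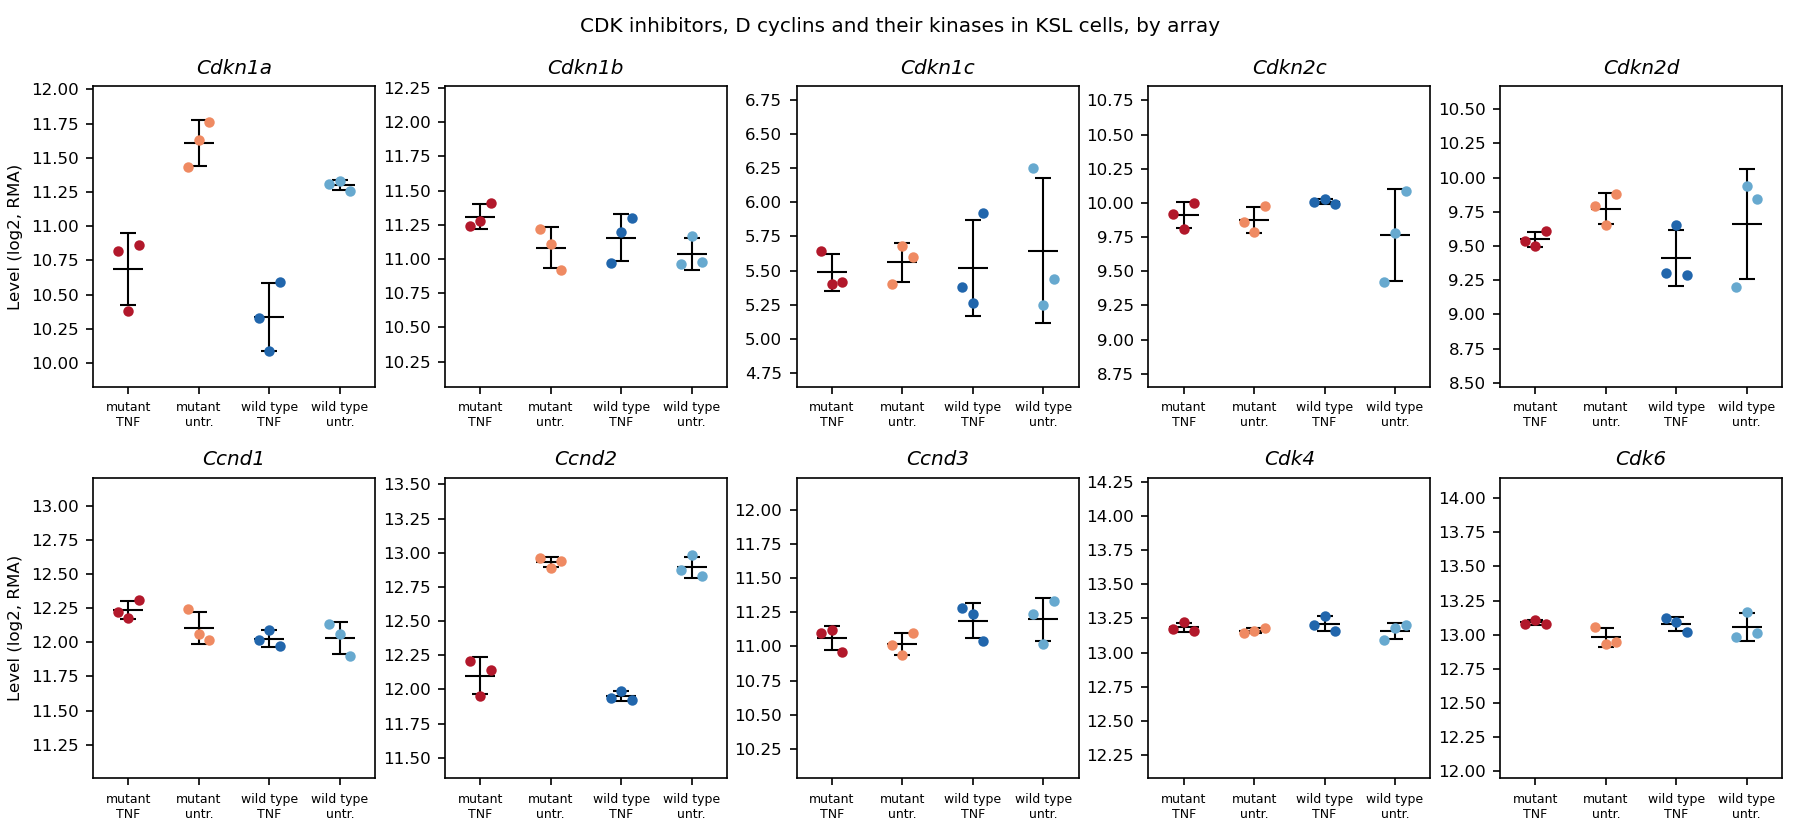
Level (log2, RMA) of each of the 10 genes on every array; points are arrays, horizontal bars the mean and error bars the SD of 3 arrays, in the order mutant with TNF, mutant untreated, wild type with TNF and wild type untreated, and every panel spans the same range of 2.2. Cdkn1a and Ccnd2 are the panels in which the treated arrays lie below the untreated ones without overlap in both genotypes.

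Cdkn1a encodes p21, an inhibitor that p53 and other stress pathways induce. It read 10.82, 10.38 and 10.86 in TNF-treated mutant cells and 11.43, 11.63 and 11.76 in untreated mutant cells. In wild-type cells it read 10.33, 10.09 and 10.59 with TNF and 11.31, 11.33 and 11.26 without. The treated arrays lay below the untreated ones without overlap in each genotype (15.8% of all genes did so in mutant and 11.7% in wild-type cells) and also over all 12 arrays (4.02%). The fall was 0.92 on the log2 scale in mutant cells (SE 0.15, 1.89-fold lower, limma adjusted p = 0.00672) and 0.96 in wild-type cells (SE 0.15, 1.95-fold lower, adjusted p = 0.00484). Averaged over genotype it was 0.94 (SE 0.11, adjusted p = 0.000275). The TNF effect in mutant cells minus that in wild-type cells was 0.04, with a 95% interval from -0.44 to 0.52. That interval is not adjusted over all genes, so differences between genotypes larger than this could also have gone uncalled.

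The second probe set of Cdkn1a, 1421679_a_at, read 9.30, 8.65 and 9.29 in treated mutant cells and 10.06, 10.22 and 10.55 in untreated ones. In wild-type cells it read 8.74, 8.57 and 8.94 with TNF and 9.05, 9.88 and 9.78 without, the lowest untreated value being that of replicate 1. It fell by 1.20 in mutant cells (limma over all probe sets, adjusted p = 0.0319). In wild-type cells its difference was -0.82 and did not pass (adjusted p = 0.121), although the arrays did not overlap.

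Ccnd2 encodes cyclin D2, the D cyclin through which growth factors such as stem cell factor are known to drive division of progenitors. It read 12.21, 11.95 and 12.14 in treated mutant cells and 12.96, 12.89 and 12.94 in untreated mutant cells. In wild-type cells it read 11.94, 11.99 and 11.92 with TNF and 12.87, 12.98 and 12.83 without. The 6 treated arrays all lay below the 6 untreated arrays, and the spread within each group was small beside the gap. Ccnd2 fell by 0.83 in mutant cells (SE 0.08, 1.78-fold lower, limma adjusted p = 0.000243) and by 0.94 in wild-type cells (SE 0.08, 1.92-fold lower, adjusted p = 9.95e-05). Averaged over genotype the fall was 0.89 (SE 0.06, adjusted p = 5.08e-06), and Ccnd2 ranked 38 of 18193 genes by p. The mutant effect minus the wild-type effect was 0.11, with a 95% interval from -0.14 to 0.36.

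All 7 probe sets of Ccnd2 fell when averaged over genotype, and the 6 dimmer ones are further readings of the same RNA, not replicates. Their differences ran from -1.33 for 1416122_at (SE 0.13) to -0.62 for 1416124_at (SE 0.10). The brightest probe set, used for the gene, gave the second smallest fall. The clearest was 1448229_s_at, which fell by 1.31 (SE 0.07, limma over all probe sets, adjusted p = 3.38e-06). That probe set read 10.54, 10.33 and 10.52 in treated mutant cells and 11.60, 11.69 and 11.72 in untreated mutant cells, against 9.96, 10.23 and 10.16 with TNF and 11.41, 11.65 and 11.51 without TNF in wild-type cells. Only 1416124_at did not pass in mutant cells alone (-0.45, adjusted p = 0.152); in wild-type cells it fell by 0.79 (adjusted p = 0.0127).

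Counted over the 10 genes, 2 were lower and 0 higher with TNF in mutant cells, in wild-type cells and in the average of both. Of all genes, 1.86% were called lower in mutant cells, 2.33% in wild-type cells and 6.32% in the average; 4.31%, 5.02% and 12.1% were called in either direction. The median log2 difference of the 10 was 0.03 in mutant cells, -0.005 in wild-type cells and 0.03 in the average, against -0.03, -0.03 and -0.04 for all genes. Over probe sets, 9 of 26 were lower and 0 higher in the average, against 3.61% of all probe sets lower; in mutant and in wild-type cells alone 8 were lower, against 0.846% and 1.07%. These 9 belong to Cdkn1a and Ccnd2 alone. Both genes passed in every alternative computed for the 3 TNF comparisons. The treated groups of both genotypes are compared with separate untreated groups, so the 2 TNF comparisons share no array, although they share 1 estimate of the spread.

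**Figure D2:**
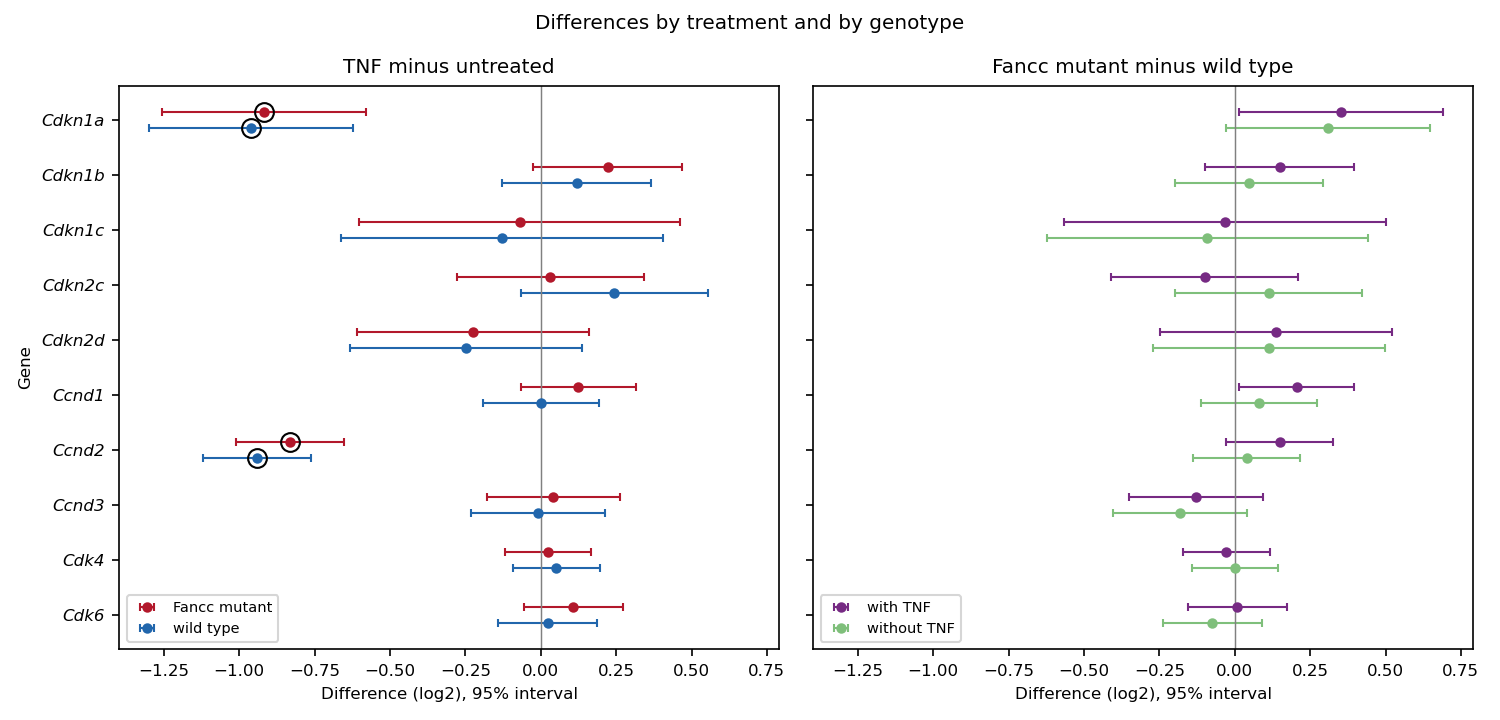
Log2 differences with 95% intervals for the 10 genes, TNF minus untreated on the left (mutant above wild type) and mutant minus wild type on the right (with TNF above without TNF); circled points passed limma's adjusted p over all genes. Cdkn1a and Ccnd2 lie near -0.9 in both genotypes on the left, and no point is circled on the right.

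Among the other inhibitors, Cdkn1b, whose product p27 restrains cyclin E and cyclin A kinases, read 11.24, 11.28 and 11.41 in treated mutant cells and 11.22, 11.11 and 10.92 in untreated ones. In wild-type cells it read 10.97, 11.20 and 11.30 with TNF and 10.96, 11.17 and 10.98 without. The treated mutant arrays lay above the untreated mutant ones without overlap, as did 10.4% of all genes, while the wild-type groups overlapped. The differences of 0.22 in mutant cells (limma adjusted p = 0.355) and 0.12 in wild-type cells (adjusted p = 0.65) did not pass, and the averaged 95% interval ran from -0.004 to 0.345. Its second probe set, 1419497_at, ranged from 8.21 to 10.14 within the wild-type untreated arrays alone, the lowest on replicate 1, and its interval was from -0.57 to 0.82.

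Cdkn1c, whose product p57 is known for its role in the quiescence of mouse stem cells, read 5.25 to 6.25 on all arrays, below the median of the gene table (7.44) but around the medians of single arrays over all probe sets (5.96 to 6.05). Its averaged interval, from -0.48 to 0.28, was the widest of the 10 genes' brightest probe sets. Cdkn2c, encoding p18, read 9.81 to 10.00 in treated and 9.79 to 9.98 in untreated mutant cells. In wild-type cells it read 9.99 to 10.03 with TNF and 9.42, 9.78 and 10.09 without, where the lowest value was again replicate 1. Its averaged difference of 0.14 did not pass (limma adjusted p = 0.429).

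Cdkn2d, encoding the INK4 inhibitor p19, is the gene whose call depended on 1 array. It read 9.54, 9.50 and 9.61 in treated mutant cells and 9.79, 9.65 and 9.88 in untreated mutant cells. In wild-type cells it read 9.30, 9.65 and 9.29 with TNF and 9.20, 9.94 and 9.84 without. The mutant groups did not overlap, as for 15.8% of all genes in the lower direction, and the wild-type groups overlapped only through untreated replicate 1. With every array the averaged difference was -0.24 (SE 0.12) and did not pass (limma adjusted p = 0.263). Without that array it was -0.35 and passed (adjusted p = 0.0188), as it did with array weights (-0.31, adjusted p = 0.0395) and with the Actb gap as a covariate (-0.35, adjusted p = 0.00265). The other alternatives left it short of the threshold. In wild-type cells alone it was -0.48 without the array (adjusted p = 0.0543) and -0.41 with the Actb gap as a covariate (adjusted p = 0.0133).

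Ccnd1 and Ccnd3, which encode the other D cyclins, were not called. Ccnd1 read 12.22, 12.18 and 12.31 in treated mutant cells and 12.24, 12.06 and 12.02 in untreated mutant cells. It read 12.02, 12.09 and 11.97 in treated and 12.13, 12.06 and 11.90 in untreated wild-type cells, so that treated and untreated arrays overlapped in both genotypes. Its averaged difference was 0.06 with a 95% interval from -0.07 to 0.20, and its other 2 probe sets gave 0.07 and -0.08. Ccnd3 read 10.96 to 11.12 in treated and 10.94 to 11.10 in untreated mutant cells, against 11.04 to 11.28 and 11.02 to 11.33 in wild-type cells. Its averaged difference was 0.02 with an interval from -0.14 to 0.17. The 2 dimmer Ccnd3 probe sets read 5.30 to 6.99 and gave -0.34 and -0.32, neither passing (adjusted p = 0.317 and 0.308), and 1 of them, 1444323_at, passed with the Actb gap as a covariate.

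The kinase genes had the smallest standard errors of the 10 in the TNF average. Cdk4 read 13.16 to 13.22 in treated and 13.14 to 13.18 in untreated mutant cells, against 13.16 to 13.27 and 13.09 to 13.20 in wild-type cells. Its averaged interval, from -0.06 to 0.14, was the narrowest of the 10. Cdk6 read 13.08 to 13.11 in treated and 12.93 to 13.06 in untreated mutant cells, against 13.02 to 13.12 and 12.98 to 13.17 in wild-type cells. Its averaged difference of 0.07 had an interval from -0.05 to 0.18. A dimmer Cdk6 probe set, 1460291_at, spread from 7.61 to 9.99 among the wild-type untreated arrays, lowest on replicate 1, with an interval from -0.99 to 0.70.

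**Figure D3:**
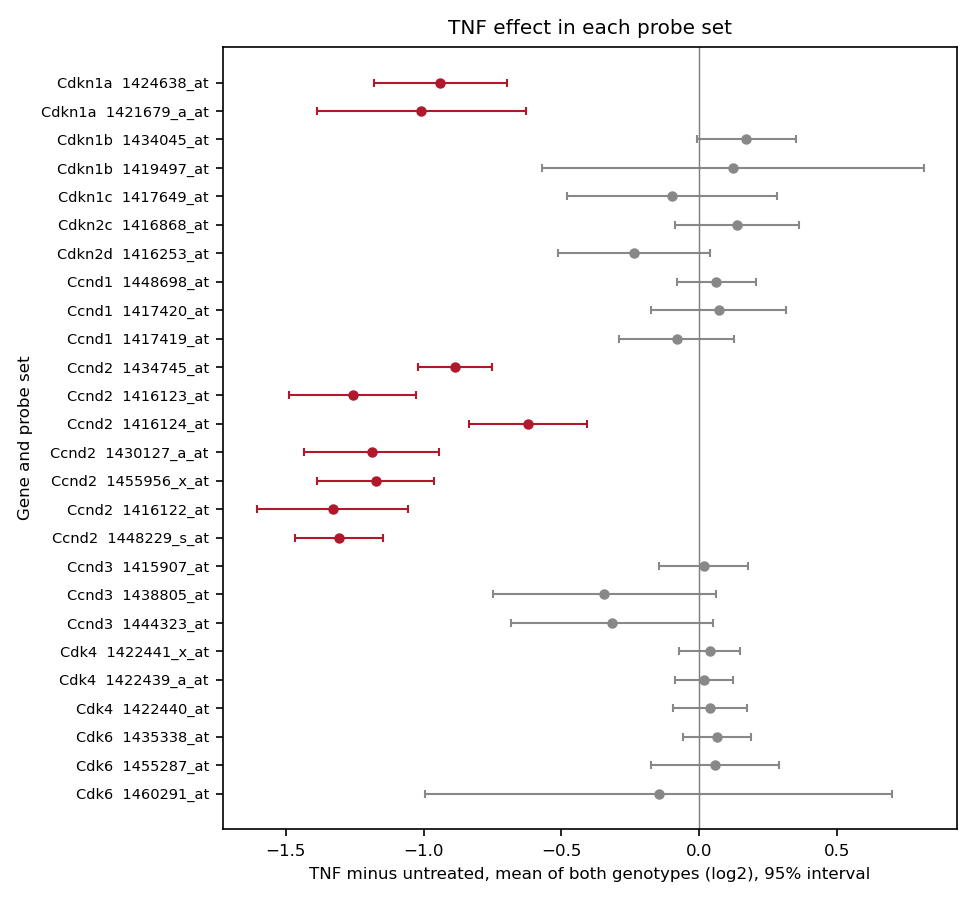
TNF minus untreated averaged over genotype (log2), with 95% intervals, for each of the 26 probe sets; red marks probe sets called over all 45037. Both Cdkn1a and all 7 Ccnd2 probe sets lie below 0, and the widest intervals belong to dimmer probe sets of Cdk6 and Cdkn1b.

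By genotype none of the 10 genes passed, without TNF, with TNF or averaged. Of all genes, 0.0055% passed without TNF, 0.0055% with TNF and 0.022% in the average. The count at an unadjusted p under 0.05 was 2 with TNF, 0 without TNF and 2 in the average, against 5.6%, 4.12% and 7.39% of all genes, and it consisted of Cdkn1a and Ccnd1 each time. Cdkn1a was 0.35 higher in mutant than in wild-type cells with TNF and 0.31 higher without (averaged 0.33, SE 0.11, limma adjusted p = 0.54). Without TNF its mutant arrays, at 11.43 to 11.76, lay above its wild-type arrays, at 11.26 to 11.33, as did 3.82% of all genes; with TNF the groups overlapped. The dimmer Cdkn1a probe set 1421679_a_at differed by more without TNF (0.71, limma over all probe sets, unadjusted p = 0.0148, adjusted p = 1). It read 10.06 to 10.55 in mutant cells against 9.05, 9.88 and 9.78 in wild-type cells. The lowest of these, 9.05, was on wild-type untreated replicate 1, the array with the largest Actb gap. With TNF the dimmer Ccnd2 probe sets, which read the same RNA, had means 0.27 to 0.41 higher in mutant cells. None of them passed over all probe sets. The brightest Ccnd2 probe set, used for the gene, overlapped, at 11.95 to 12.21 in mutant and 11.92 to 11.99 in wild-type cells. Ccnd1 was 0.21 higher in mutant cells with TNF (adjusted p = 0.859), with arrays that did not overlap (4.2% of all genes), and 0.08 higher without TNF (adjusted p = 0.992). The difference between the TNF effects of the genotypes passed for 0 of the 10 genes and 0% of all genes, and 0 of the 10 had an unadjusted p under 0.05, against 2.9% of all genes. Its largest value was for Cdkn2c, at -0.21, with a 95% interval from -0.65 to 0.23.

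Few genes acting around the same step of the cell cycle passed. Of 22 other G1 regulators measured, 1 rose and 0 fell in the TNF average, with a median of 0.08; it was Rbl1, encoding the retinoblastoma relative p107, at 0.26 (limma adjusted p = 0.00927). Rbl1 did not pass with arrays centred on their median, with sex-linked covariates or with the mean of probe sets. Of 32 S phase and mitosis genes, 0 rose and 2 fell with a median of 0.00: Mybl2, an E2F-regulated transcription factor gene (-0.44, adjusted p = 0.0258), and Cdc6, which loads the replicative helicase (-0.24, adjusted p = 0.0408). Mybl2 lost its call without replicate 2 or 3 of the treated mutant, 1 or 2 of the untreated mutant or 2 or 3 of the treated wild-type arrays, and with the sex-linked covariates (adjusted p up to 0.169 over all alternatives). Cdc6 lost its call without any 1 of the treated arrays, without untreated mutant replicate 1 or 2 or untreated wild-type replicate 3, with the replicate number as a block, with the sex-linked covariates and with all probe sets (up to 0.286). In mutant or wild-type cells alone 0 of the 32 passed, against 4.31% and 5.02% of all genes. For comparison, 12.1% of all genes passed in the TNF average, and the median over all genes was -0.04.

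Of 17 measured p53 targets other than Cdkn1a, 3 rose and 0 fell in the average, with a median of 0.05. Of all 18193 genes, 1057 were called higher and 6.32% lower in this average. In mutant cells alone 2 of the 17 rose and in wild-type cells alone 1, and 0 fell in either. Of all 18193 genes, 446 were called higher in mutant cells alone and 489 in wild-type cells alone. The 3 called in the average were Pmaip1, a BH3-only cell death gene, at 1.23 (SE 0.15, limma adjusted p = 0.000375), the antiproliferative gene Btg2 at 0.56 (adjusted p = 0.0032) and the stress gene Sesn1 at 0.55 (adjusted p = 0.0153). Sesn1 did not pass in mutant cells alone (limma adjusted p = 0.0859). In the average Btg2 did not pass with the sex-linked covariates (adjusted p = 0.0529), and Pmaip1 and Sesn1 passed in all 23 alternatives.

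Among 24 measured regulators known to act on these genes, 3 rose and 3 fell in the average, with a median of -0.05. In either direction 12.1% of all genes were called in this average. The TGF-beta receptor gene Tgfbr2 rose by 0.61 (limma adjusted p = 0.00174), Egr1 by 1.14 (adjusted p = 0.00345) and Smad3, a mediator of TGF-beta signals, by 0.36 (adjusted p = 0.00847). Gfi1, a repressor that restrains stem cell cycling in mice, fell by 1.18 (adjusted p = 0.00195), Klf4 by 1.21 (adjusted p = 0.038) and the granulocytic factor gene Cebpa by 0.54 (adjusted p = 0.0229). Gfi1 and Egr1 passed in all 23 alternatives. Klf4 did not pass without treated mutant replicate 2, without replicate 2 or 3 of any of the other groups, or with all probe sets (adjusted p up to 0.0877). Cebpa did not pass with the sex-linked covariates, without untreated mutant replicate 3 or without replicate 2 or 3 of either wild-type group (up to 0.087). Tgfbr2 did not pass with the mean of probe sets (adjusted p = 0.0578), nor Smad3 with that or with the sex-linked covariates. Myc, the Foxo genes measured and Bmi1 were not called.

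**Figure D4:**
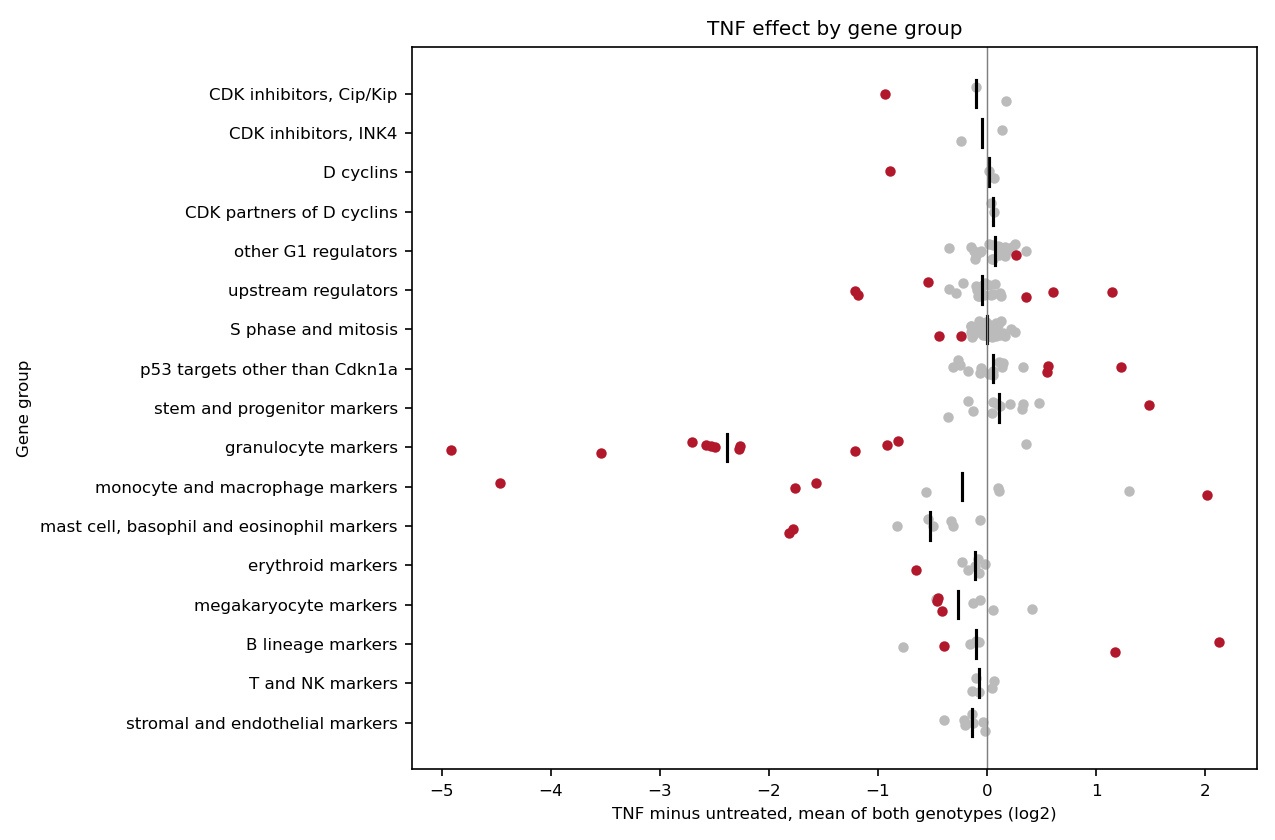
TNF minus untreated averaged over genotype (log2) for each measured gene of the groups described; each point is a gene, red points passed limma's adjusted p over all genes and black bars are group medians, with vertical position within a row without meaning. The G1 and S phase groups lie close to 0, while granulocyte markers spread down to -4.92.

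The fall of Cdkn1a and Ccnd2 coincided with a fall of granulocyte markers. Of 12 measured, 11 fell and 0 rose in the TNF average, with a median of -2.38, and 5 fell in mutant cells and 8 in wild-type cells alone. Of all genes, 6.32% were called lower in the average, 1.86% in mutant cells and 2.33% in wild-type cells. In either direction 12.1% were called in the average. Of the 11, 4 lost their call in some alternatives (named after their values were seen): Mpo in 10 and S100a9 in 12 of 23, and Ctsg (adjusted p = 0.0925) and Camp (adjusted p = 0.0503) with the sex-linked covariates. For Mpo and S100a9 these included leaving out wild-type untreated replicate 1. The summed signal of the 12 granulocyte markers on the linear scale was 16824 to 38160 in treated and 61952 to 72501 in untreated mutant cells. In wild-type cells it was 18764 to 28872 in treated and 51854 to 64338 in untreated cells. One of the 12, Cxcr2, was below the gene table's median on every array. Monocyte and macrophage markers fell in 3 and rose in 1 of 8 cases, and stem and progenitor markers rose in 1 of 12, the protein C receptor gene Procr at 1.48 (limma adjusted p = 0.00565). The summed signal of the stem and progenitor markers was 26617 to 29202 in treated and 24512 to 26367 in untreated mutant cells, and 27537 to 29707 and 26360 to 28546 in wild-type cells. In such bulk samples fewer cells of a type and less RNA per cell cannot be told apart, and the part of the changed markers in the fall of Cdkn1a and Ccnd2 was not tested. Sex-linked transcripts also differed between arrays, in part along with treatment. Xist, expressed from the inactive X chromosome of females, read 12.20 to 12.61 in treated mutant cells and 5.12, 12.73 and 12.04 in untreated mutant cells, against 12.47 to 13.08 in treated and 5.47, 5.06 and 12.53 in untreated wild-type cells. All 3 arrays with low Xist were thus untreated, and its averaged difference with TNF was 3.74 (limma, unadjusted p = 0.0289, adjusted p = 0.139). The Y-linked gene Eif2s3y was low on 2 arrays, untreated mutant replicate 2 (4.16) and treated wild-type replicate 3 (3.79), and read 10.46 to 11.88 on the others. With Xist and Eif2s3y as covariates Cdkn1a and Ccnd2 still passed in each TNF comparison.

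Over the 12 arrays, the genes with levels most like those of Cdkn1a were Sfxn5 (Pearson's r = 0.990), Olfm1 (0.980) and Klf13 (0.979), among 8834 named genes above the median mean level. For Ccnd2 they were Tm6sf1 (0.982), Slc25a12 (0.981) and Irf2bpl (0.981). These values describe arrays that fall into a treated and an untreated cluster for both genes, so no p is given.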

How the data were processed

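The authors deposited 1 log2 level for each probe set of a single-colour Affymetrix array, made with RMA (background correction, quantile normalization and summary per probe set), per the submitters' processing notes, which give no version. Each array took 5 to 15 ng of RNA, amplified, per the labels. A range of 2.14 to 14.55 set the log base. RMA equalises the arrays, so an overall shift could not be seen, and the number of arrays limits the precision.

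Of 45101 probe sets, 64 controls were left out, 34945 had 1 gene symbol, 932 had several and 9160 are unnamed here. A gene was its brightest probe set by mean over all arrays (18193 genes). limma 3.58.1 in R 4.3.3 fitted 1 mean per group over all 12 arrays, with empirical Bayes moderation, 7 two-sided contrasts and Benjamini-Hochberg adjustment over all genes, or over all 45037 probe sets where probe sets are named. The fit was checked on simulated data. Alternatives were a replicate block, a filter on low values (9444 genes kept), the mean of probe sets, all probe sets, 3 other scalings, array weights (statmod 1.5.0), trended robust moderation, only the groups compared, Xist and Eif2s3y as covariates, each array left out and, chosen after seeing the data, the Actb 3′ minus 5′ level as a covariate.

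The 10 genes, the 13 other gene lists (185 genes) and the tests were chosen with earlier results of these data known. Named genes were all 10 with every probe set, Fancc, up to 6 genes per list called in the TNF average, and for each called gene the 3 most correlated named genes; not every list gene was named. Sex-linked genes were used as covariates, and the Actb controls, Kit, Cd34, Flt3, Ly6a, Myc and Bmi1 were also named.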

Additional observations from a re-analysis of the deposited data

How the results depend on the processing

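Cdkn1a and Ccnd2 passed with the same direction in all 24 alternatives in mutant cells, all 24 in wild-type cells and all 23 in the average. The averaged difference ran from -1.003 to -0.863 for Cdkn1a and from -1.109 to -0.849 for Ccnd2. The highest adjusted p for Cdkn1a was 0.0479 in mutant cells, 0.0332 in wild-type cells and 0.00688 in the average. Cdkn2d was the other gene of the 10 to pass anywhere, in the settings given above, so that 3 genes were called there. Of the 26 probe sets, 9 were called in the average, 8 with the Xist and Eif2s3y covariates, 11 with the Actb gap as a covariate (chosen after seeing the data) and 10 without wild-type untreated replicate 1. Cdkn1c was not among the genes kept by the filter on low values. With the replicate number as a block, 2 genes and 9 probe sets were called, and of the named cell cycle genes Cdc6 lost its call. Same-numbered arrays correlated between -0.16 and 0.28 in their deviations from group means, with 7 of 18 pairs above 0.1. Of the 12 arrays, 9 were most like their own number. Whether the numbers pair the samples is not known, and the main tests did not pair them. Over all genes 2207 were called in the TNF average, 1057 of them higher; with arrays centred on their median it was 852 of 2271, and with the sex-linked covariates 1270 in all. Comparing only the groups in question was not possible for the averages or the interaction. With 3 arrays a group, small differences were not detectable, and probe sets near background compress any change.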

Other observations

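Other marker lists also held called genes in the TNF average (limma, adjusted over all genes). Of all genes, 12.1% were called in either direction and 6.32% lower, and 1057 of 18193 were called higher. Among 8 markers of mast cells, basophils and eosinophils, 2 fell and 0 rose: Mcpt8 (-1.82) and Hdc (-1.78). Of 7 B lineage markers 2 rose and 1 fell: the recombinase gene Rag1 rose by 2.12 and passed in all 23 alternatives, while Ebf1 (1.17) and Cd79a (-0.40) passed in 13 and 10 of 22. Without wild-type untreated replicate 1 Ebf1 did not pass. Neither of the mast cell group's 2 passed in mutant cells alone. Of 8 megakaryocyte markers 3 fell, but 0 passed in mutant cells alone: Gp9 passed in 12 and Gp5 in 11 of 22 alternatives, and Gp1bb in 21, all but the sex-linked covariates. Of 7 erythroid markers 1 was lower, Klf1 (-0.66), a share near that of all genes, and all 7 were below the gene table's median on every array. None of the list genes passed in a comparison of genotypes.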
